A study of Mus musculus with 6 samples.

Results

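The genes described here encode the proteins of the cytosolic ribosome, measured in liver natural killer (NK) cells of mice given metformin and of mice given phosphate-buffered saline (PBS). They were chosen by name and type alone: protein-coding genes whose symbol starts with Rpl or Rps followed by a digit, plus Rplp0, Rplp1, Rplp2 and Rpsa. Of 103 protein-coding entries with such a symbol, 10 that begin with Rps6k (kinases) and 6 with "-ps" in the symbol were left out. This left 87 of the 55414 genes in the table, on 19 chromosomes: 49 named for the large subunit, 33 for the small subunit, 3 for the acidic stalk, and 2 that match by name but are not ribosomal proteins. Those 2 are Rps19bp1, a nucleolar binding partner of Rps19, and Rps23rg1, a gene that arose in mice by retroposition of Rps23. A filter on low counts left 84 for testing. The other 3 are Rpl10l with 0 reads, Rpl3l with at most 2 reads in a library and Rpl39l with at most 12.

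All libraries came from NK cells of wild-type (WT) mice on day 3, lymphocytes of innate immunity that kill tumour cells and infected cells. One group had received metformin, an antidiabetic biguanide whose best known target is mitochondrial complex I, at 200 mg/kg over 3 days, and the other had received PBS, with 3 libraries in each group. RNA was total RNA, made into libraries by SMART-seq mRNA, a method that copies transcripts with a poly(A) tail and amplifies them by PCR, here without molecular identifiers. The age and sex of the mice, the isolation of the cells and the number of mice behind a library are not given in the sources used here, so the p-values cover only the variation among these libraries, part or all of which could be technical.

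A ribosome is a large and a small subunit built from ribosomal RNA and about equal numbers of copies of each ribosomal protein, and its proteins are made from some of the most abundant messenger RNAs of a cell. Most of these transcripts are short and start with an unbroken run of pyrimidines, the terminal oligopyrimidine (TOP) motif. Through this motif the kinase complex mTORC1 and the RNA-binding protein Larp1 control how well the transcripts are translated and how long they are kept, and metformin is known to lower mTORC1 signalling in many cell types. RNA levels were measured here, and neither translation nor protein.

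Sequences around the transcription start were available from RefSeq (GRCm38.p6) for 67 of the 87 genes. The lines below give 30 bases before and 30 bases from the start of 4 genes that stand at different ends of the comparison below. Capitals mark the longest unbroken run of C and T in these 60 bases. Rpl38 (chr11:114668550-114668609, plus strand) and Rplp2 (chr7:141447621-141447680, plus strand) were among the genes highest with metformin relative to PBS, and Rps6 (chr4:86857338-86857397, minus strand) and Rpl7l1 (chr17:46782627-46782686, minus strand) among the lowest.
Rpl38: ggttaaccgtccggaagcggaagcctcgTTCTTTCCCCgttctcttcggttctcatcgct
Rplp2: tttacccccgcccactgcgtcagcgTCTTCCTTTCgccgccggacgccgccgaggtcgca
Rps6: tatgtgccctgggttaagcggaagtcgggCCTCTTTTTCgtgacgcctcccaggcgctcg
Rpl7l1: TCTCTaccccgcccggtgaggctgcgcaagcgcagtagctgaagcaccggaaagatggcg

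Rpl38, Rplp2 and Rps6 each carried a run of 10 pyrimidines across the annotated start. The longest run of Rpl7l1, a paralog of Rpl7, was 5 bases and lay away from the start. Not all genes at these ends carried a run across the start. Among other genes higher with metformin, the longest run was 6 bases in Rpl37, 7 in Rpl37a and 5 in Rps28. In Rpl10, which was lower, it was 4 bases. The runs of Rpl37, Rpl37a, Rps28 and Rpl10 all lay away from the start. Rps29 and Rpl3 had no entry. A run of 10 pyrimidines thus occurred at both ends of the comparison, and so did shorter runs. A run of at least 8 pyrimidines within 30 bases of the start was present in 36 of 67 genes with an entry (53.7%), against 25.8% of all 27025 genes in the RefSeq table. The median longest run was 9 bases in the ribosomal protein genes and 6 bases in all genes. In windows of 300 bases, searched on both strands, CCGGAAG, the core of sites for ETS factors, occurred in 26 of 67 genes (38.8%) and in 9.93% of all genes. Such matches describe letters in a window and show no binding.

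The libraries held 22983788, 24266803 and 22152167 estimated reads for metformin 1, 2 and 3, and 27263681, 24838302 and 30161214 for PBS 1, 2 and 3. All 10 NK cell markers were present in every library, with a summed level of 21083 to 23496 CPM (reads scaled to the TMM-adjusted total of a library) with metformin and 20282 to 21831 CPM with PBS. Metformin 3 stood apart from the other 5 libraries. It had the largest share of mitochondrial reads (0.72%, against 0.429% and 0.468% in the other metformin libraries and 0.437% to 0.515% with PBS) and the lowest weight when limma estimated library quality (0.278, against 1.01 to 1.58). Across genes, the Spearman correlation of a library's deviation from the mean level with gene length was -0.10, 0.15 and -0.43 in metformin 1, 2 and 3 and 0.07, 0.30 and 0.35 in PBS 1, 2 and 3 (15527 genes, which share a library and are not replicates). Short genes therefore read highest in metformin 3 and long genes in PBS 2 and 3. Most ribosomal protein genes are short, so the main results below are given as measured, with an offset for the length trend, and without metformin 3. The offset was fitted per library on the Gene Length of the table, or, where said, on the length that the authors' reads and TPM imply for a gene, and both are described below.

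Ribosomal protein genes made up 1.14%, 1.08% and 1.46% of reads in metformin 1, 2 and 3, and 1.13%, 1.08% and 1.03% in PBS 1, 2 and 3. Their summed level was 11424, 10944 and 14217 CPM with metformin, against 11333, 11012 and 10211 CPM with PBS. Metformin 3 lay above all other libraries, metformin 1 just above and metformin 2 within the range of the PBS libraries, so the groups overlapped. The means were 12195 ± 1767 CPM with metformin and 10852 ± 578.3 CPM with PBS (SD, n = 3 each), a log2 ratio of 0.17, which became 0.04 without metformin 3. As TPM, the authors' values per transcript length scaled to a fixed total, the sums were 36962, 36817 and 44132 with metformin, against 38035, 38389 and 36370 with PBS, a log2 ratio of 0.06, which turned to -0.03 without metformin 3. On that scale metformin 1 and 2 lay inside the PBS range. Libraries were made from a cell population, so fewer cells with a given transcript and less transcript per cell cannot be told apart.

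**Figure D1:**
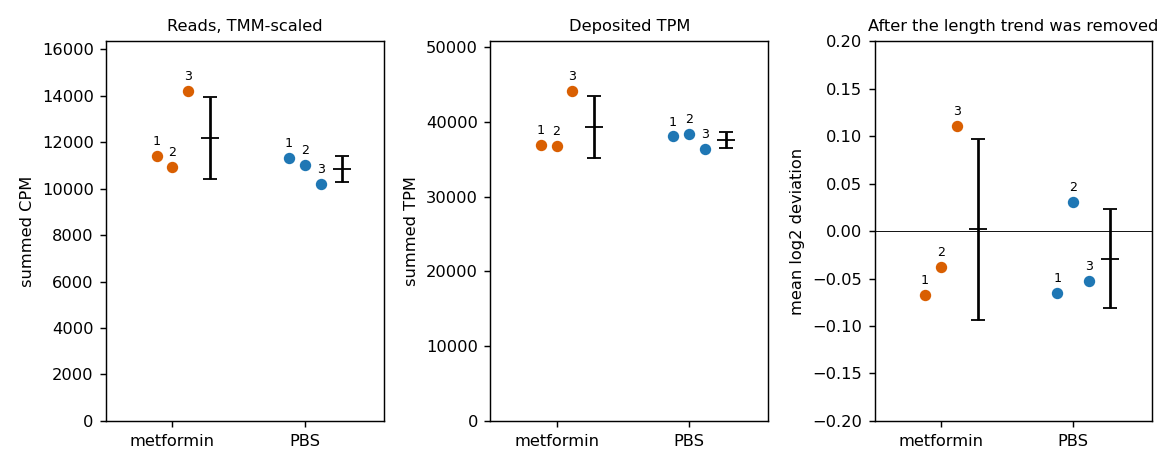
Ribosomal protein genes in each library, as summed CPM, as summed TPM and as the mean log2 deviation of the 84 genes after the length trend was removed, with metformin left of PBS in each panel; numbered points are libraries, the short bar is the mean and the error bar the SD (n = 3 each). Metformin 3, at 14217 CPM, 44132 TPM and a mean deviation of 0.11, lies above the other 5 libraries in all 3 panels.

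The excess in metformin 3 was shared across nearly all of the genes. Metformin 3 was the highest of the 6 libraries for 79 of the 84 genes tested, against 4549 of all 15527 genes (29.3%). Relative to a gene's mean over the 6 libraries, 83 of 84 were higher in metformin 3, 41 in metformin 1 and 20 in metformin 2, against 33, 25 and 2 in PBS 1, 2 and 3. The mean log2 deviation over the 84 genes was 0.02, -0.04 and 0.34 in metformin 1, 2 and 3, against -0.04, -0.09 and -0.18 in PBS 1, 2 and 3. The SD of that deviation among genes of a library was 0.08 to 0.14, which is small beside the deviation of metformin 3. After the trend with gene length was subtracted, the mean deviations were -0.07, -0.04 and 0.11 with metformin and -0.07, 0.03 and -0.05 with PBS. Metformin 3 was the highest on that scale too, and PBS 2 was second. The difference between the group means was 0.03 on that scale, and -0.02 without metformin 3.

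**Figure D2:**
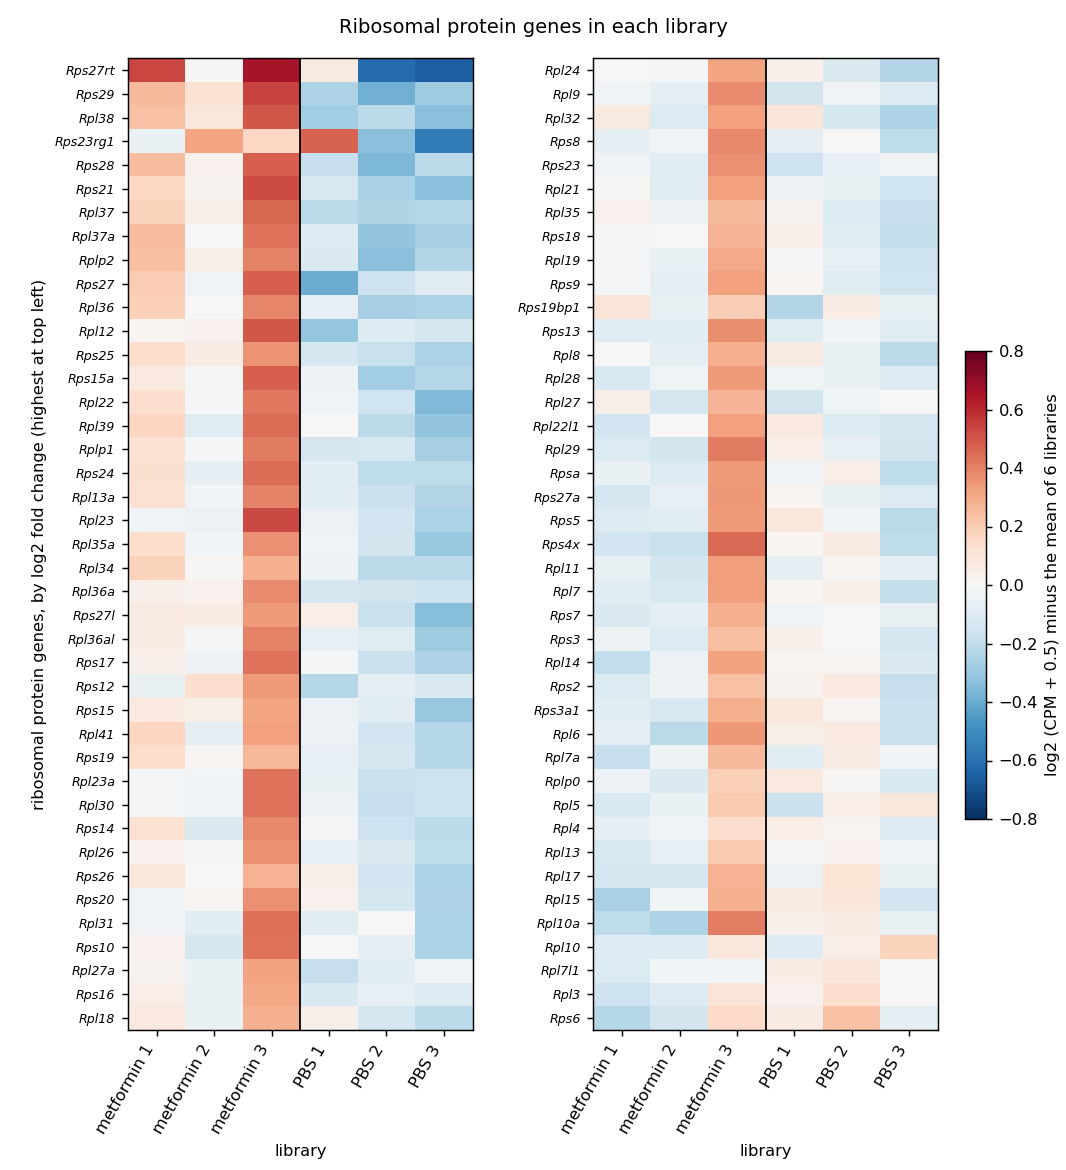
Level of 82 of the 84 ribosomal protein genes in each library, as the log2 deviation from the gene's mean over the 6 libraries, with the metformin libraries left of the line and the PBS libraries right of it; rows are genes ordered by log2 fold change. Metformin 3 was above the mean for 83 of all 84 genes and PBS 3 for 2.

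Single genes were tested with edgeR's quasi-likelihood test, metformin over PBS, with p-values adjusted by Benjamini and Hochberg over all 15527 genes. At an adjusted p under 0.05 this called 0 ribosomal protein genes and 0 genes in all (0%). At an unadjusted p under 0.05, 22 of 84 ribosomal protein genes were higher with metformin (26.2%), where 5.29% of all genes were. By the same measure 0 of 84 were lower, where 5.08% of all genes were. The log2 fold change was above 0 for 80 of 84 (95.2%), against 50.9% of all genes, and its median was 0.21, against 0.01 over all genes. Every metformin library lay above every PBS library for 30 of 84 genes (35.7%), where this held for 9.49% of all genes, and every metformin library lay below every PBS library for 1 gene, Rpl7l1, where this held for 9.63% of all genes. DESeq2, with its own adjustment, called 3 ribosomal protein genes higher with metformin (Rps29, Rpl38 and Rps27rt) and 0.941% of all genes. limma-voom called 0 ribosomal protein genes, without and with weights for library quality, and with those weights 36 genes in all. Without weights it put 78 of 84 above 0, with a median of 0.20. With weights it put 59 of 84 above 0, with a median of 0.11. The medians over all genes were 0.000917 and 0.00395.

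Large-subunit proteins surround the RNA that catalyses peptide bond formation. Of 46 tested, 43 had a log2 fold change above 0, 10 of them at an unadjusted p under 0.05, with a median of 0.20, where 50.9% of all genes were above 0 and 5.29% were higher at that p. Rpl38 encodes a small protein whose loss in mice alters the translation of Hox transcripts and the axial skeleton. It was measured at 60.1, 54.5 and 72.4 CPM in metformin 1, 2 and 3, against 42.01, 44.1 and 40.5 CPM in PBS 1, 2 and 3. The groups did not overlap, and its lowest metformin library stood well above its highest PBS library. The log2 fold change (± SE) was 0.56 ± 0.12 (adjusted p = 0.261 by edgeR and 0.0193 by DESeq2). It was 0.44 without metformin 3 and 0.11 after removal of the length trend (0.04 with the implied length).

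Rpl37 and Rpl37a encode zinc-binding proteins of the large subunit. Rpl37 was measured at 79.8, 72.3 and 96.3 CPM with metformin, against 60.2, 59.2 and 59.8 CPM with PBS, a log2 fold change (± SE) of 0.47 ± 0.12 (edgeR adjusted p = 0.308). Rpl37a was measured at 173.7, 146.6 and 198.2 CPM with metformin, against 136.3, 117.5 and 121.9 CPM with PBS, a log2 fold change (± SE) of 0.46 ± 0.13 (edgeR adjusted p = 0.323). In both genes all metformin libraries were above all PBS libraries, and the PBS libraries of Rpl37 lay between 59.2 and 60.2 CPM. After removal of the length trend the log2 fold changes were 0.24 for Rpl37 and 0.14 for Rpl37a (0.21 and 0.11 with the implied length), and without metformin 3 they were 0.34 and 0.35.

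Rpl41, Rpl13 and Rpl32 were among the large-subunit genes with the highest level per length. Rpl41, the shortest ribosomal protein, averaged 1479 ± 144 TPM with metformin and 1400 ± 51.5 TPM with PBS (SD, n = 3 each). Its reads were 215.1, 180.6 and 239.1 CPM with metformin, against 184.9, 170.9 and 162.8 CPM with PBS. Metformin 2 lay below PBS 1, so the groups overlapped, and the log2 fold change was 0.29 (edgeR adjusted p = 0.472). For Rpl41 it was -0.02 after removal of the length trend and 0.19 without metformin 3. The log2 fold change was 0.20 for Rpl32 and 0.01 for Rpl13, both with overlapping groups, and turned to -0.03 and -0.06 after removal of the length trend. Without metformin 3 it was 0.07 for Rpl32 and -0.10 for Rpl13. Abundance and fold change were weakly related: over the 84 genes, Spearman's rho of mean TPM with log2 fold change was 0.16, a description of genes that share libraries.

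At the other end, 4 of the 84 genes had a log2 fold change below 0 in the edgeR test, and 3 of these are named for the large subunit. That role was read from the symbol alone, also for Rpl7l1. Rpl7l1 was measured at 116.9, 124.2 and 124.1 CPM with metformin, against 131.3, 134.9 and 125.9 CPM with PBS. The groups did not overlap, but the gap between metformin 2 and PBS 3 was small, and the log2 fold change (± SE) of -0.10 ± 0.09 (edgeR adjusted p = 0.692) did not pass. It was -0.11 after removal of the length trend and -0.12 without metformin 3. Rpl3, a core protein that reaches towards the peptidyl transferase centre, was measured at 303.8, 317.3 and 366.6 CPM with metformin, against 349.1, 374.9 and 339.6 CPM with PBS. Metformin 1 and 2 were the lowest libraries for Rpl3 and metformin 3 lay among the PBS libraries, with a log2 fold change (± SE) of -0.11 ± 0.10 (edgeR adjusted p = 0.725), -0.19 after removal of the length trend and -0.20 without metformin 3. Rpl10, which joins the large subunit late and is needed for its release to translation, was measured at 88.7, 88.6 and 101.1 CPM with metformin, against 88.7, 99.1 and 107.8 CPM with PBS. Its groups overlapped and its log2 fold change was -0.09 (edgeR adjusted p = 0.795), -0.31 after removal of the length trend and -0.16 without metformin 3. Rpl5 and Rpl11, which bind Mdm2 when ribosome assembly fails, had log2 fold changes of 0.02 and 0.10 and overlapped between groups. These turned to -0.04 and -0.13 after removal of the length trend, and to -0.09 and -0.06 without metformin 3.

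Small-subunit proteins build the particle that binds messenger RNA and reads the code. Of 33 tested, 32 had a log2 fold change above 0, 10 of them at an unadjusted p under 0.05, with a median of 0.24, beside the same shares of all genes (50.9% and 5.29%). Rps29, a small zinc-binding protein of the small subunit, had the smallest p of all 84 genes. It was measured at 113.7, 102.8 and 138.1 CPM in metformin 1, 2 and 3, against 79.7, 72.6 and 77.6 CPM in PBS 1, 2 and 3. All metformin libraries lay above all PBS libraries, which were close to each other. The log2 fold change (± SE) was 0.62 ± 0.12 (adjusted p = 0.226 by edgeR and 0.00329 by DESeq2), 0.49 without metformin 3 and 0.18 after removal of the length trend (0.13 with the implied length). Rps28 was measured at 53.9, 46.6 and 63.6 CPM with metformin, against 39.9, 35.3 and 39.0 CPM with PBS. Again the groups did not overlap, with a log2 fold change (± SE) of 0.52 ± 0.13 (edgeR adjusted p = 0.306). For Rps28 the length trend as removed by the table's Gene Length left 0.39, but its reads and TPM values imply a much shorter transcript, and removal by that length left 0.04. It was 0.395 without metformin 3.

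Rps27, Rps14 and Rps18 were among the small-subunit genes with the highest level per length, at a mean over all libraries of 1440, 1153 and 977.4 TPM. Rps27, another zinc-binding protein, was measured at 140.2, 119.2 and 169.5 CPM with metformin, against 92.3, 108.6 and 114.4 CPM with PBS. Every metformin library was higher, with a log2 fold change of 0.44 (edgeR adjusted p = 0.402). For Rps27 this was 0.10 after removal of the length trend, turned to -0.12 with the implied length, and was 0.30 without metformin 3. The log2 fold changes were 0.27 for Rps14 and 0.17 for Rps18, each with overlapping groups. After removal of the length trend they were 0.06 and -0.0029 (-0.05 and -0.17 with the implied length), and without metformin 3 they were 0.13 and 0.06. Rps19, mutated in the human anaemia named after Diamond and Blackfan, was measured at 229.3, 210.9 and 250.5 CPM with metformin, against 198.8, 189.2 and 177.8 CPM with PBS. All metformin libraries were above all PBS libraries, and its log2 fold change (± SE) of 0.29 ± 0.10 (edgeR adjusted p = 0.427) was 0.28 after removal of the length trend by Gene Length, 0.01 by the implied length, and 0.22 without metformin 3.

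Rps6 had the lowest log2 fold change of all ribosomal protein genes. Its protein is the classical substrate of the kinases that mTORC1 activates. It was measured at 177.8, 188.2 and 231.6 CPM with metformin, against 217.8, 245.4 and 197.4 CPM with PBS. Metformin 1 and 2 were the lowest libraries and metformin 3 lay above PBS 1 and 3, so the groups overlapped. The log2 fold change (± SE) was -0.14 ± 0.13 (edgeR adjusted p = 0.711), -0.27 without metformin 3 and -0.33 after removal of the length trend. Rpsa, a small-subunit protein also known as the laminin receptor precursor, was measured at 288.4, 276.9 and 378.9 CPM with metformin, against 293.6, 311.2 and 260.3 CPM with PBS. The groups overlapped and the log2 fold change was 0.13, 0.04 after removal of the length trend and -0.04 without metformin 3.

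The stalk of the large subunit is made of Rplp0 at its base and Rplp1 and Rplp2 in pairs along it, and it recruits the GTPases that drive translation. Rplp2 was measured at 82.0, 71.7 and 91.7 CPM with metformin, against 63.9, 55.0 and 58.9 CPM with PBS. Rplp1 was measured at 134.3, 123.2 and 165.8 CPM with metformin, against 113.1, 113.4 and 103.2 CPM with PBS. For Rplp1 and Rplp2 the groups did not overlap, with log2 fold changes of 0.36 and 0.46 (edgeR adjusted p = 0.427 and 0.308). Rplp0, the longer transcript, was measured at 465.8, 443.3 and 549.7 CPM with metformin, against 508.5, 484.1 and 441.6 CPM with PBS. Its groups overlapped and its log2 fold change was 0.02; the difference from Rplp1 and Rplp2 was not tested. After removal of the length trend the values were 0.25 for Rplp2, -0.06 for Rplp1 and -0.11 for Rplp0, and with the implied length they were 0.09, -0.04 and -0.07. Without metformin 3 they were 0.37, 0.22 and -0.08, in the same order.

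The length of the transcripts ran with these differences. The Gene Length that the table gives had a median of 1094 bases in the 87 genes (374 to 5179), against 2997 bases in all genes tested. All genes tested were divided into 10 classes of about equal size by Gene Length. In class 1, the shortest genes (48 to 955 bases), the median log2 fold change was 0.39 and 86% of genes were above 0. The 32 ribosomal protein genes in that class had a median of 0.28, with 31 above 0, below the median of the class. In class 2 (956 to 1542 bases) the median was 0.15 over all genes and 0.17 over 27 ribosomal protein genes, and in class 3 (1543 to 2028 bases) it was 0.10 over all genes and 0.13 over 11 ribosomal protein genes. In class 10, the longest genes, it was -0.15 over all genes, with 28.7% above 0. The ribosomal protein genes in class 4 (4 genes) and class 5 (6 genes) had medians of 0.21 and 0.25, against 0.04 and -0.00010 over all genes of those classes. Without metformin 3, class 1 had a median of 0.28 over all genes and 0.13 over ribosomal protein genes. Spearman's rho of Gene Length with log2 fold change was -0.40 over 15527 genes, and -0.21 without metformin 3.

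**Figure D3:**
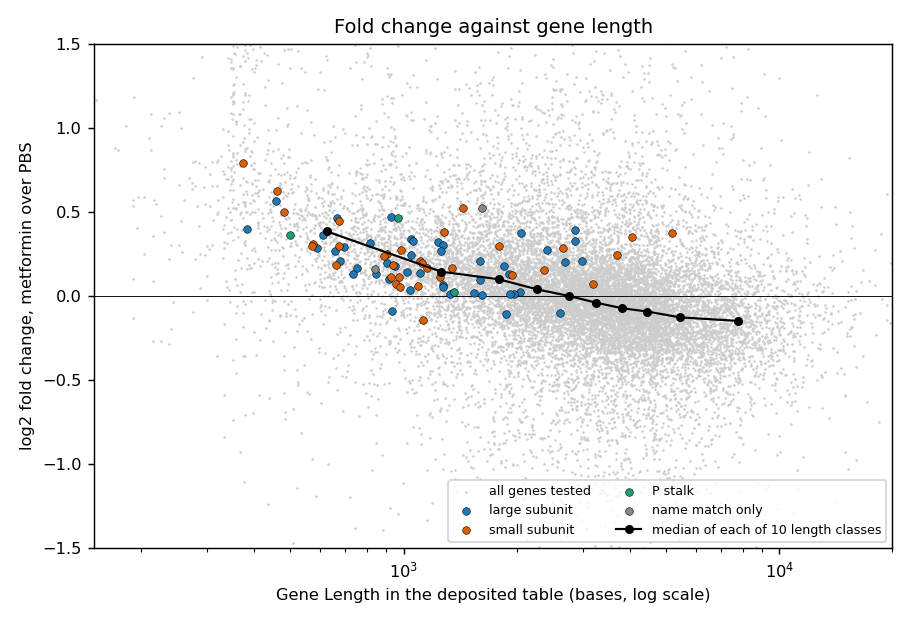
Log2 fold change, metformin over PBS, against the Gene Length of the deposited table (log scale), with all genes tested in grey, ribosomal protein genes in colour and the median of each of 10 length classes; genes beyond the axis limits are not drawn. Most ribosomal protein genes lie at short lengths, where the median of all genes is also above 0 (0.39 in class 1).

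Gene Length differs from the length behind the authors' TPM values. Division of a gene's estimated reads by its TPM gives a relative length in the authors' own scaling, here set to the median ratio to Gene Length over all genes. This implied length had a median of 594.9 bases in the 84 genes (172.2 to 3486), against 2778 bases in all genes tested, and its Spearman correlation with Gene Length was 0.50 over the 84. Among the ribosomal protein genes, rho with the log2 fold change was -0.72 for the implied length and -0.30 for Gene Length. It was also -0.72 for the implied length without metformin 3. These are descriptions over genes that share the same 6 libraries.

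Divided by implied length into 3 classes of 28, the shortest transcripts (172 to 446 bases) had 28 of 28 log2 fold changes above 0, 18 of them at an unadjusted p under 0.05, with a median of 0.33. Among all 649 genes of that range 88.1% were above 0 and 23.1% were higher at that p, with a median of 0.47. Of the 28 in the middle (466 to 787 bases), 27 were above 0 and 4 reached that p, with a median of 0.21, beside 83.6%, 12.7% and a median of 0.25 for all 754 genes of that range. Of the 28 longest (797 to 3486 bases), 25 were above 0 and 0 reached that p, with a median of 0.08, beside 58.7%, 5.3% and a median of 0.05 for all 8145 genes of that range. Without metformin 3 the medians were 0.21, 0.07 and -0.06, in the same order. The genes led by Rps29 and Rpl38 belong to the shortest class, and Rps6, Rpl3, Rplp0 and Rpl7l1 to the longest.

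**Figure D4:**
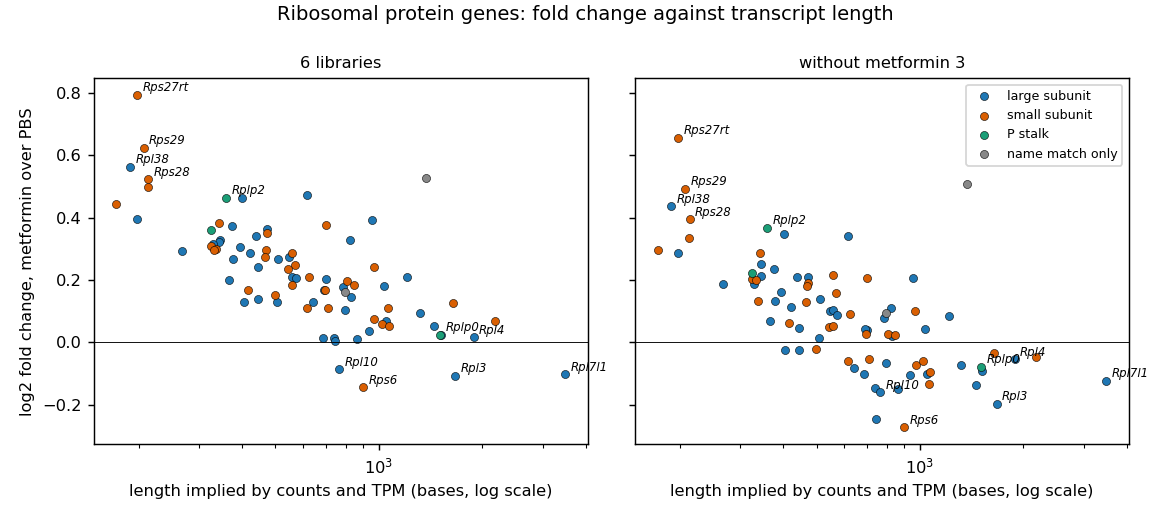
Log2 fold change of the ribosomal protein genes, metformin over PBS, against the length implied by counts and TPM (log scale), with all 6 libraries in the left panel and without metformin 3 in the right panel; points are genes, coloured by subunit. With all libraries the shortest 28 genes have a median of 0.33 and the longest 28 a median of 0.08.

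With the length trend removed, the median of the ribosomal protein genes lay near that of all genes. The trend was removed by an offset for each library, a lowess curve of log2 deviation on log2 Gene Length over all genes tested. Among the 84 genes it did not leave fold changes free of length: rho with Gene Length, -0.30 before, was 0.34 with the offset, and rho with the implied length was -0.37. With this offset 41 of 84 genes had a log2 fold change above 0 (48.8%), against 50.1% of all genes, and the median was -0.01, against 0.00073 over all genes. At an unadjusted p under 0.05, 11 of 84 were higher with metformin (13.1%), where 4.72% of all genes were. At the same p 3 were lower (3.57%), namely Rps6, Rpl3 and Rpl10, where 5.47% of all genes were. At an adjusted p 0 of 84 were called. Several of the 11 higher genes had a Gene Length far above their implied length, such as Rps15a (5179 against 699.5 bases) and Rps24 (4059 against 473.3 bases). An offset on the implied length left 22 of 84 above 0 and a median of -0.06, against 0.0019 over all genes, and rho with the implied length was then -0.03. With that offset 2 were higher and 5 lower at an unadjusted p under 0.05. The shares of all genes in that fit are not given here. The authors' TPM, tested as log2(TPM + 1), gave 48 of 84 above 0 and a median of 0.04, against -0.08 over all genes. The share of all genes above 0 from TPM is not given here. Division by length cancels when a gene is compared with itself, so TPM does not remove the trend.

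Without metformin 3, and with no length correction, 56 of 84 genes were above 0 (66.7%), against 49.5% of all genes, with a median of 0.08. Then 16 were higher at an unadjusted p under 0.05 (19%), where 4.9% of all genes were, and 3 were lower (Rps6, Rpl3 and Rpl10a), where 6.51% of all genes were. With the length offset as well, 32 of 84 were above 0 (38.1%), against 48.5% of all genes, with a median of -0.05. In that fit 9 were higher, where 4.94% of all genes were, and 10 were lower (11.9%), where 6.26% of all genes were. Among the 10 lower ones were Rpl3, Rpl6, Rpl10a, Rpl29, Rps3a1, Rps4x, Rps6, Rps7 and Rps27a. The 9 higher ones were Rpl34, Rpl37, Rplp2, Rps15a, Rps19, Rps24, Rps25, Rps27rt and Rps28. Some of these, such as Rps15a and Rps24, have a Gene Length far above their implied length. No offset on the implied length was fitted without metformin 3.

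**Figure D5:**
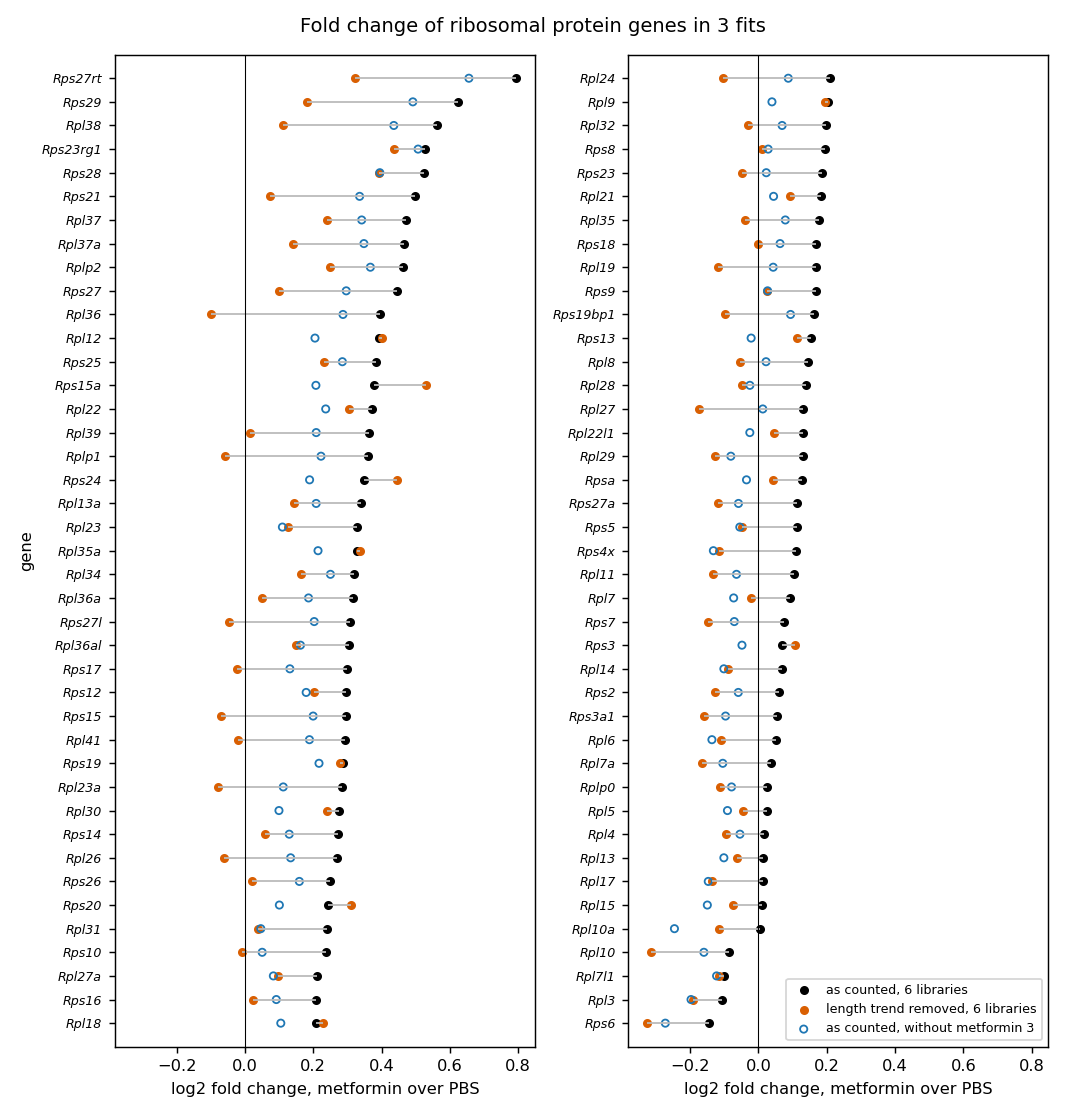
Log2 fold change of 82 of the 84 ribosomal protein genes, metformin over PBS, in 3 fits: all libraries (black), all libraries with the length trend removed (orange), and without metformin 3 (open blue); rows are genes ordered by the first and a grey line joins the fits on all libraries. Of all 84 genes, the fit on all libraries put 80 above 0, the length offset 41 and the fit without metformin 3 56.

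Single genes differed in how far they depended on these choices. Over the 26 fits that were run, 17 of the 84 genes had a log2 fold change above 0 in every one: Rpl12, Rpl13a, Rpl21, Rpl22, Rpl23, Rpl27a, Rpl37, Rpl37a, Rpl38, Rplp2, Rps15a, Rps19, Rps20, Rps24, Rps27rt, Rps28 and Rps29. Another 4 were below 0 in every one: Rps6, Rpl3, Rpl10 and Rpl7l1. The value of Rps6 ranged from -0.36 to -0.06 over these fits. The 26 fits reuse the same 6 libraries and are not independent, and the share of all genes that kept their sign is not given here. For some of the 17 the lowest value was close to 0, at 0.01 for Rpl22, Rpl23 and Rps19, against 0.22 for Rps27rt. Of the 22 genes at an unadjusted p under 0.05 with all libraries, 10 also reached it with the length offset. With that offset 4.72% of all genes were higher at that p, and the share that passed in both fits is not given here.

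The ratio of the subunits varied little. Large-subunit reads were 1.41, 1.43 and 1.38 times small-subunit reads in metformin 1, 2 and 3, against 1.42, 1.43 and 1.46 times in PBS 1, 2 and 3. Metformin 3 had the lowest and PBS 3 the highest ratio, and metformin 2 lay among the PBS libraries. After removal of the length trend, 20 of 46 large-subunit genes and 19 of 33 small-subunit genes were above 0, with medians of -0.04 and 0.02. Of all genes 50.1% were above 0 in that fit, with a median of 0.00073.

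Several ribosomal protein genes have a paralog by name, and whether it can take their place was not tested. Rpl22 and Rpl22l1 both encode the large-subunit protein eL22. In mice Rpl22 is needed for αβ T cell development and holds down Rpl22l1. Rpl22 was measured at 31.0, 27.9 and 37.9 CPM with metformin, against 27.7, 25.2 and 22.0 CPM with PBS, all metformin libraries above all PBS libraries, with a log2 fold change of 0.37 (edgeR adjusted p = 0.466). Rpl22l1 was measured at 22.0, 24.7 and 31.0 CPM with metformin, against 26.0, 22.7 and 22.3 CPM with PBS, with overlapping groups and a log2 fold change of 0.13. The share of Rpl22l1 in the TPM of the pair was 38.6%, 45% and 42.5% with metformin, against 48.4%, 46.8% and 47.6% with PBS. All metformin libraries had a lower share than all PBS libraries, the only one of the tested pairs without overlap. The implied lengths of Rpl22 and Rpl22l1 were 374.8 and 404.9 bases, and their log2 fold changes were 0.01 and -0.21 with the offset on that length. With the offset on Gene Length (2051 and 1908 bases) they were 0.30 and 0.04, and without metformin 3 they were 0.24 and -0.03.

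Rps27rt, an intronless copy of Rps27, had the highest log2 fold change of all tested members, 0.79 ± 0.24 (SE, edgeR adjusted p = 0.359). It was measured at 106.7, 74.2 and 116.5 CPM with metformin, against 77.2, 47.9 and 46.5 CPM with PBS. PBS 1 exceeded metformin 2, so the groups overlapped, and its SE was larger than that of any other tested member but Rps23rg1, which is near 0 reads. The log2 fold change was 0.32 after removal of the length trend, by Gene Length or implied length, and 0.66 without metformin 3. Its share of the TPM of the pair with Rps27 was 39.9%, 35% and 37.5% with metformin, against 42.2%, 28% and 26.2% with PBS. Reads of such near-identical copies can be exchanged by the counting, so the values of Rps27 and Rps27rt are uncertain. The same holds for the class: 329 table entries named as pseudogenes of ribosomal proteins carried 12.7%, 11.3% and 12% as many reads as the genes themselves with metformin, against 12.4%, 9.02% and 9.18% with PBS. The sources used here do not give the strand setting of the counting, so reads from antisense transcripts cannot be told apart.

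Rps27l, a paralog of Rps27 that p53 induces, held 16.6%, 18.8% and 16.6% of their pair with metformin, against 22.9%, 18.1% and 15.6% with PBS. Rpl36al held 79.6%, 78.9% and 79.4% of its pair with Rpl36a with metformin, against 80.6%, 80.3% and 78% with PBS. Rpl7l1 held 16.7%, 15.8% and 11.7% of its pair with Rpl7 with metformin, against 15.2%, 14.9% and 16.7% with PBS. These shares overlapped between the groups. The tissue-restricted paralogs were at or near 0: Rpl10l, of testis, had 0 reads in all 6 libraries, Rpl3l, of muscle, at most 2, and Rpl39l, of testis, held 0.259%, 0.528% and 1.08% of its pair with Rpl39 with metformin, against 0.28%, 1.01% and 0.244% with PBS.

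Some ribosomal proteins fall outside the naming rule. Fau encodes Rps30 fused to a ubiquitin-like protein and was measured at 88.3, 82.3 and 113.1 CPM with metformin, against 75.8, 74.8 and 74.0 CPM with PBS. The groups did not overlap, with a log2 fold change of 0.34 (edgeR adjusted p = 0.457) and 0.04 after removal of the length trend. Without metformin 3 it was 0.18. Rack1, a scaffold on the small subunit, had a log2 fold change of 0.09, 0.22 after that removal and -0.08 without metformin 3.

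Genes whose products build ribosomes stood mostly below 0. Of 62 ribosome assembly factors tested, 14 had a log2 fold change above 0, 9 were lower with metformin at an unadjusted p under 0.05 and 1 was higher, with a median of -0.10. Over all genes 50.9% were above 0, 5.08% lower and 5.29% higher, with a median of 0.01. At an adjusted p under 0.05 edgeR called 0 of them. The median was -0.11 after removal of the length trend, when 6 were lower and 1 higher (5.47% and 4.72% of all genes), and -0.10 without metformin 3. Their median Gene Length was 3064 bases, near that of all genes. Sdad1, whose yeast counterpart acts in export of the large subunit, was measured at 25.8, 23.2 and 21.8 CPM with metformin, against 32.0, 29.0 and 30.2 CPM with PBS. All metformin libraries were lower, with a log2 fold change (± SE) of -0.37 ± 0.12 (edgeR adjusted p = 0.389). Ncl, nucleolin, named here after its values were seen, was measured at 302.0, 303.6 and 314.5 CPM with metformin, against 358.4, 382.2 and 338.3 CPM with PBS. Again the metformin libraries were all lower, with a log2 fold change of -0.23 (edgeR adjusted p = 0.459), and -0.07 after removal of the length trend for its Gene Length of 8202 bases. Emg1, which modifies ribosomal RNA of the small subunit, was the 1 that was higher, at 123.7, 113.7 and 133.7 CPM with metformin, against 96.3, 104.6 and 99.5 CPM with PBS, with a log2 fold change of 0.30 (edgeR adjusted p = 0.387).

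The transcription of ribosomal RNA was covered by 24 genes, of which 1 was higher (Polr1h) and 2 lower (Polr1b and Taf1c) at an unadjusted p under 0.05, with a median of -0.07. After removal of the length trend 0 were higher and 1 lower (4.72% and 5.47% of all genes). The log2 fold change of Polr1h, of 742 bases, was 0.34 before that removal and 0.04 after it. Of 33 initiation factors, as measured, 0 were higher and 1 lower at an unadjusted p under 0.05, with a median of -0.04. Of all genes 5.29% were higher and 5.08% lower at that p. Eif3j1, a loosely bound subunit of the initiation factor eIF3, was the lower one, at 31.3, 32.4 and 37.1 CPM with metformin, against 38.0, 41.6 and 42.03 CPM with PBS. Its groups did not overlap, and the log2 fold change was -0.27 (edgeR adjusted p = 0.472), and -0.12 after removal of the length trend. Eif4g2, an initiation factor that acts without the cap-binding protein, had a log2 fold change of -0.36 (edgeR adjusted p = 0.478), with metformin 3 lowest at 870.5 CPM, and -0.20 without that library.

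Elongation factors and partners of TOP transcripts counted 25, with 0 higher and 4 lower at an unadjusted p under 0.05 (Eef2k, Larp4, Hnrnpa1 and Vim) and a median of -0.01, where 5.29% of all genes were higher and 5.08% lower. Some of these, such as Eef1a1, are themselves TOP transcripts. Eef1a1 averaged 1920 ± 236.3 CPM with metformin and 1928 ± 109.6 CPM with PBS (SD, n = 3 each), and Eef2 averaged 591 ± 48.2 CPM with metformin and 596.8 ± 35.3 CPM with PBS. Both were named after their values were seen, and both overlapped between the groups, and the log2 fold changes were -0.01 for each. Eef2k, the kinase that slows elongation through Eef2, was measured at 82.6, 69.4 and 58.6 CPM with metformin, against 94.1, 97.5 and 88.6 CPM with PBS. Larp4, a poly(A)-binding protein that protects ribosomal protein transcripts, was measured at 52.1, 60.2 and 40.3 CPM with metformin, against 78.1, 83.3 and 61.8 CPM with PBS. In both all metformin libraries were lower, with log2 fold changes of -0.41 and -0.55 (edgeR adjusted p = 0.391 and 0.376) and of -0.27 and -0.41 after removal of the length trend. Larp1, also named afterwards, was measured at 131.0, 140.0 and 98.95 CPM with metformin, against 142.6, 141.5 and 144.8 CPM with PBS. Metformin 2 was just below the PBS libraries and metformin 3 far below, with a log2 fold change of -0.21 (edgeR adjusted p = 0.602), and -0.07 after removal of the length trend.

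Of 20 genes tested for mTORC1 and the ribosomal S6 kinases, 1 was higher and 2 lower at an unadjusted p under 0.05, beside 5.29% and 5.08% of all genes, with a median of -0.03. Rps6kb2, a kinase of Rps6, was measured at 102.8, 89.4 and 95.1 CPM with metformin, against 75.0, 72.3 and 76.6 CPM with PBS. All metformin libraries were higher, with a log2 fold change (± SE) of 0.36 ± 0.10 (edgeR adjusted p = 0.31), 0.36 without metformin 3 and 0.47 after removal of the length trend. Rps6ka5, a nuclear kinase of another branch of that family, was measured at 21.1, 18.2 and 15.5 CPM with metformin, against 27.6, 27.8 and 26.0 CPM with PBS. All metformin libraries were lower, with a log2 fold change (± SE) of -0.57 ± 0.15 (adjusted p = 0.307 by edgeR and 0.0461 by DESeq2). The other lower gene was Sesn2, an inhibitor of mTORC1. Rps6kb1, another kinase of Rps6, had a log2 fold change of -0.03.

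Among 22 genes of ribosome quality control and stalling, 4 were higher (Trip4, Edf1, Gtpbp2 and Usp21) and 1 lower (Eif2ak4) at an unadjusted p under 0.05, with a median of -0.04, where 5.29% of all genes were higher and 5.08% lower. Trip4, part of a complex that splits stalled ribosomes in human cells, was measured at 207.1, 209.8 and 223.6 CPM with metformin, against 151.5, 182.0 and 178.7 CPM with PBS. Edf1, which binds collided ribosomes in human cells, was measured at 126.4, 117.7 and 158.3 CPM with metformin, against 106.4, 107.5 and 104.5 CPM with PBS. In both all metformin libraries were higher, with log2 fold changes of 0.32 and 0.34 (edgeR adjusted p = 0.385 and 0.438) and of 0.49 and 0.10 after removal of the length trend.

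Markers of other cell types also varied between the libraries. Hepatocyte markers (14 of 14 found, 0 at zero) summed to 293, 277 and 664 CPM in metformin 1, 2 and 3, against 246 to 371 CPM with PBS, and macrophage and monocyte markers (11 of 11 found) to 545, 511 and 915 CPM, against 450 to 649 CPM with PBS. For both lists metformin 3 was the highest library, as it was for the ribosomal protein genes. T cell markers (7 of 7 found) summed to 63.3 to 199 CPM with metformin and 26.8 to 85.1 CPM with PBS, and B and plasma cell markers (7 of 7) to 244 to 911 CPM with metformin and 188 to 433 CPM with PBS. For these the highest library was metformin 1 and the lowest metformin library was metformin 3. Neutrophil markers (6 of 6 found) summed to 3.64 to 27.4 CPM with metformin and 5.11 to 13.2 CPM with PBS, and erythroid markers (6 of 6) to 62 to 166 CPM with metformin and 62 to 145 CPM with PBS. Endothelial markers (6 of 6) summed to 80.8 to 103 CPM with metformin and 99.5 to 113 CPM with PBS. The part of these cells, of the mitochondrial share and of the quality of metformin 3 in the result on ribosomal protein genes was not tested.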

How the data were processed

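RNA from 6 liver NK cell libraries was sequenced after SMART-seq mRNA preparation, per the labels' protocols. The submitters' processing notes list DRAGEN, GRCm39 and mm10 without a version or role; the sources used here do not give the counter, strand setting or filters. The authors deposited estimated counts per gene, not normalized, and TPM, which they scaled per length and to a fixed total, with a Gene Length per gene. Of 87 member positions the deposited file shares 1 with GENCODE M21 on GRCm38, so its coordinates are not printed; promoter coordinates are those of RefSeq GRCm38.p6.

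The deposited estimated counts were rounded and tested with edgeR 4.0.16 in R 4.3.3 (glmQLFit, glmQLFTest, TMM, filterByExpr, no covariate), which left 15527 genes with a common coefficient of variation of 27.3%; CPM use TMM-scaled totals. Alternatives were DESeq2 1.42.0, limma 3.58.1 (voom without and with sample quality weights, and limma-trend on log2 TPM with a pseudocount of 1 or 0.1), other normalizations and filters, protein-coding genes only, offsets per library from a lowess (span 0.3) on log2 length, a replicate block, and each library left out. The fits were tested on simulated data. The fit on implied length, the length offset without metformin 3, the sums so treated, and the counts of genes above 0 and at an unadjusted p under 0.05 were added after the data were seen. The members and lists were chosen with earlier results of these data known, so most counts and medians are set beside those of all genes, with no test over a list. Of 260 list symbols the file holds 259, with 2 under a synonym.

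Named were the 6 members with the smallest p in each direction at a mean of at least 5 CPM (only 4 were lower), the 4 per subunit with the highest TPM, the stalk genes and Rpsa, paralogs with their parents, Rps6, Rpl5, Rpl11, Rps19 and Rpl10, the highest and lowest log2 fold change, Fau and Rack1, and per list the 2 genes with the smallest p at that level; other genes were named after their values were seen. Some genes that this rule selects are not reported here, by name or in the plots by gene. Replicate numbers were not taken to pair the libraries, because the correlation of same-numbered deviations was under 0.1 for 1 of 3 numbers. That value was 0.0997, just under the limit, so a pairing is not excluded.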

Additional observations from a re-analysis of the deposited data

How the results depend on the processing

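The log2 ratio of the summed level was 0.17, 0.06 from TPM, 0.21 as a mean of log2 CPM, and 0.0434 to 0.24 with 1 library left out; without metformin 3 it turned to -0.0274 from TPM and, after removal of the length trend, to -0.0235. The median log2 fold change of ribosomal protein genes (0.208) was -0.00505 with the length offset, -0.00607 with that offset fitted without these genes, 0.0411 and 0.0412 from TPM with pseudocounts of 1 and 0.1, -0.0554 with the implied length, and -0.0528 and -0.0552 without metformin 3 under both length offsets. With 1 library left out it was 0.0809 to 0.285. The number above 0 (80) was 41 with either length offset, 48 from TPM, 22 with the implied length, 32 without metformin 3 under either offset, and 56 to 81 with 1 library left out, where 84 or 85 passed the filter. The number higher at an unadjusted p under 0.05 (22) was 11 with either offset, 10 from TPM, 2 with the implied length, 9 without metformin 3 under either offset, and 11 to 31 with 1 library left out (11 without PBS 2 and 11 without PBS 3). For both counts the shares of all genes are given above for the main fit, the length offset, the fit without metformin 3, and that fit with the offset. They are not given for the other fits, whose counts therefore cannot be set against all genes. The length offsets subtract a trend over gene length, and the fits without metformin 3 leave out the library where most of these genes were highest. For the 79 of 84 genes that were highest in metformin 3, leaving it out lowers the metformin mean. The direction of that change was therefore set in advance for them, and only its size was open. The cause of the differences between all these fits, those from TPM and those without PBS 2 or PBS 3 included, was not tested.

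At an adjusted p under 0.05 ribosomal protein genes called were 0, and 3 by DESeq2. Over all genes calls were 0, 274 by DESeq2, 36 by limma-voom with quality weights, 1 each with no filter, with either length offset, with the implied length and without metformin 3 (0 to 1 with 1 library left out), and 17 without metformin 3 under either offset. The replicate block gave 3 calls over all genes and 0 among ribosomal protein genes. It put 78 above 0 and 15 higher at an unadjusted p under 0.05, with a median of 0.203. The replicate block with the length offset gave 41 above 0, 9 higher and a median of -0.00619. Correlations of same-numbered deviations were 0.177, 0.0997 and 0.164, and the block changed no sign among 47 named genes. Signs changed for 12 of 47 named genes with the length offset, 8 without metformin 3 and 20 with the implied length.

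With 3 libraries a group, differences of the size seen here, mostly under 0.5 on the log2 scale, did not pass adjustment over all genes. That does not show that they are absent. The coefficient of variation of 27.3% is common to all genes tested and is not that of these genes. Their summed CPM had a pooled SD of 0.153 on the log2 scale between libraries of a group.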
